A study of Rattus norvegicus with 10 samples.

Results

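Slc10a2 encodes the apical sodium-dependent bile acid transporter, and its messenger RNA was followed in each of 10 rat hippocampi, as 1 gene of the 17168 gene symbols in the count table. The gene was chosen because it was among those with the smallest p-values when RG2833-fed and untreated animals were compared, so its own difference between the groups is described below with no test. All 10 animals were female TgF344-AD rats (genotype Tg-AD in the labels), an Alzheimer's disease model that carries human mutant APP and presenilin 1 transgenes under the mouse prion promoter, and all were killed at 11 months of age. The untreated group was 5 animals on ordinary rodent chow. The RG2833 group was 5 animals given chow with 750 mg of RG2833 per kg from 5 months of age, for 6 months. RG2833 is a small-molecule inhibitor of the histone deacetylases HDAC1 and HDAC3, which remove acetyl groups from histones. Every animal carried the transgenes and no wild-type group was analysed here, so the comparison is of diet within transgenic animals only. Stranded mRNA libraries were made from the left hippocampus after perfusion with saline.

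Bile acids are detergent-like products of cholesterol. They are made mainly in the liver, secreted into the gut, and recovered in the last part of the small intestine, where the Slc10a2 protein draws them into the cell together with sodium. They also act as signals, through the nuclear receptor FXR (Nr1h4) and the cell-surface receptor TGR5 (Gpbar1). In the brain, neurons start the disposal of cholesterol by hydroxylating it with Cyp46a1, and several bile acid precursors arise from oxysterols of this kind.

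The promoter window of Slc10a2 is shown because binding sites in it have been studied in gut cells and because AP-1 genes are on the list of factors described further down. In RefSeq's rat assembly GRCr8, the window from 250 bases before to 50 bases after the start of the gene lies at chr16:91087839-91088138 on the plus strand. The submitters' processing notes name another build, rn6, for the reads, so these coordinates belong to the sequence alone. Capitals mark the only match to the AP-1 motif TGANTCA, searched on both strands.
Slc10a2 promoter: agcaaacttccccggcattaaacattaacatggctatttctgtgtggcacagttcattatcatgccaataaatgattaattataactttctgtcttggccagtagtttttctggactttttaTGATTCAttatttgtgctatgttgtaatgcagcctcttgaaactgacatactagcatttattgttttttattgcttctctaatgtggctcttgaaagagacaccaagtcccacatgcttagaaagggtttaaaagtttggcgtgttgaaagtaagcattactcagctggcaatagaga
The match begins 128 bases before the gene start. The same motif occurred in 2453 of 33469 promoter windows of this length, or 7.33%. No match was found in the Slc10a2 window to the FXR inverted repeat AGGTCANTGACCT or to the LRH-1 motif TCAAGGNCA, which occurred in 0.0269% and 1.60% of windows. A match describes letters in this window and not a bound site.

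Slc10a2 messenger RNA was present in every hippocampus and stood lower in every RG2833-fed animal than in any untreated animal. As CPM after TMM library scaling (counts brought to a common library total), the untreated animals 1 to 5 had 97.7, 94.7, 81.5, 96.3 and 77.6 CPM. The RG2833 animals 1 to 5 had 50.6, 50.8, 55.6, 48.4 and 53.4 CPM. The lowest untreated animal, number 5, was thus 22.0 CPM above the highest RG2833 animal, number 3. In single pairs of animals, the RG2833 value was between 0.496 and 0.716 times the untreated one. Over all tested genes, 7.27% had groups fully apart, and a choice by small p-value favours such genes.

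The mean level was 89.6 ± 9.28 CPM (SD, n = 5) in untreated and 51.8 ± 2.78 CPM (SD, n = 5) in RG2833 animals, 42.2% lower. On the log2 scale the fitted difference was -0.79 ± 0.08 (SE, edgeR quasi-likelihood fit across all genes). The pooled SD between animals of one group was 0.12 on this scale. Because the gene was chosen by its small p-value in this contrast, a large difference beside a small SD comes with that choice. For scale, the 315 genes called lower in the same fit had a median log2 fold change of -0.55.

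**Figure D1:**
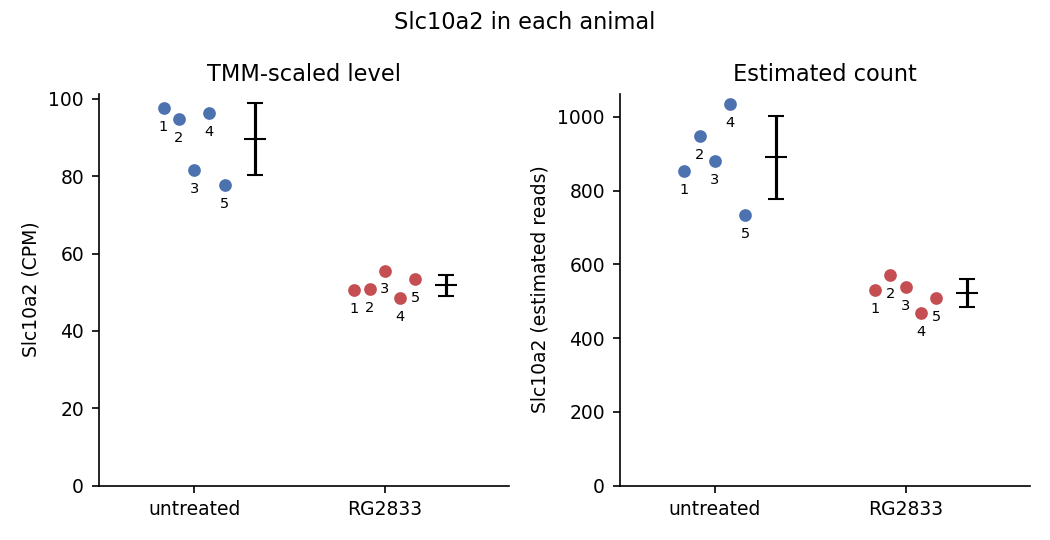
Slc10a2 in each animal, as TMM-scaled CPM (left) and as the estimated number of reads before scaling (right). Points are animals labelled by replicate number, and the bar beside each group is the mean ± SD (n = 5). All RG2833 animals lie below all untreated animals on both scales, at no more than 55.6 CPM against at least 77.6 CPM.

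Slc10a2 had between 734 and 1035 estimated reads in untreated animals and between 468 and 570 in RG2833 animals, so the raw counts did not overlap either. Counting error for such numbers is between 3.11% and 4.62% of the value in one animal, and it covers counting only, since the reads carry no molecular identifiers. The SD between animals was 10.4% of the mean in the untreated and 5.36% in the RG2833 group. Among untreated animals, numbers 1, 2 and 4 lay close together, and numbers 3 and 5 lay below them. The authors' own normalized table gave the same picture, with 89.6 ± 9.16 CPM without and 51.7 ± 2.69 CPM with RG2833 (SD, n = 5). The size of the difference varied little with the processing. Over 22 alternative fits it lay between -0.90 and -0.75 on the log2 scale, and over the 10 that each left out 1 animal between -0.84 and -0.76.

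The gene model sets a limit on what was counted. In the GRCr8 gene table, 1 long non-coding RNA gene, LOC134482429, overlaps Slc10a2. It has no row of its own in the count table. The libraries keep strand, but whether the counting used it is not given in the sources used here, so reads of such a transcript could not be told apart from Slc10a2 reads.

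Library totals ranged from 8764266 to 11311673 estimated counts. Other measures also differed between the groups. Ribosomal RNA loci took 2.70 to 5.36% of counts in untreated and 1.13 to 1.96% in RG2833 animals, with no overlap. Among 14 marker lists of cell types, the summed levels did not overlap for 2. Groups were fully apart for 7.27% of all tested genes, each taken singly, and that share was not worked out for sums. The 8 excitatory neuron markers summed to between 4890 and 6758 CPM in untreated and between 6883 and 7530 CPM in RG2833 animals. The 8 measured CA2 and CA3 pyramidal markers of 9 listed summed to between 1361 and 2129 CPM and to between 2301 and 3048 CPM. In each of these lists 1 marker was called (edgeR adjusted p under 0.05), Camk2a and Nptx1, both higher with RG2833. Over all 14 lists, 4 of the 86 tested markers were called, 4.65% against 5.08% of all tested genes, and the other 2, Aif1 of the microglia list and Prlr of the choroid plexus list, were lower. The sums of the dentate granule, CA1 pyramidal and inhibitory neuron lists overlapped between the diets, and 0 of their markers were called. None of the listed markers that have a row was at 0 in all animals, although reads in a single animal are enough for that. In every animal the excitatory neuron markers summed to at least 4890 CPM and the astrocyte markers to at least 4315 CPM. In bulk tissue, fewer cells of a type and less RNA per cell cannot be told apart.

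Single animals show how Slc10a2 stood beside these measures. Untreated animal 4 had the highest neuron marker sum of its group, 6758 CPM, next to the RG2833 range, and the lowest ribosomal RNA share, and its Slc10a2 level was 96.3 CPM. Animals 2 and 3 had ribosomal RNA shares of 5.36% and 5.08% and Slc10a2 levels on either side of the group mean. With the ribosomal RNA share in the fit, entered as its log2, the Slc10a2 difference was -0.90 ± 0.16 (log2, SE), and with the excitatory neuron score it was -0.80 ± 0.11. A marker score is the mean log2 CPM of the tested markers, each centred over all animals, so it weighs markers otherwise than the sum does. The choroid plexus list was high in a single library, untreated animal 1, at 2464 CPM, with 11.95 to 30.5 CPM for untreated animals 2 to 5. Without that animal the Slc10a2 difference was -0.76. Because the neuron marker sum and the ribosomal RNA share both separate the diets completely, diet and these measures cannot be told apart, and their part in the Slc10a2 difference was not tested.

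**Figure D2:**
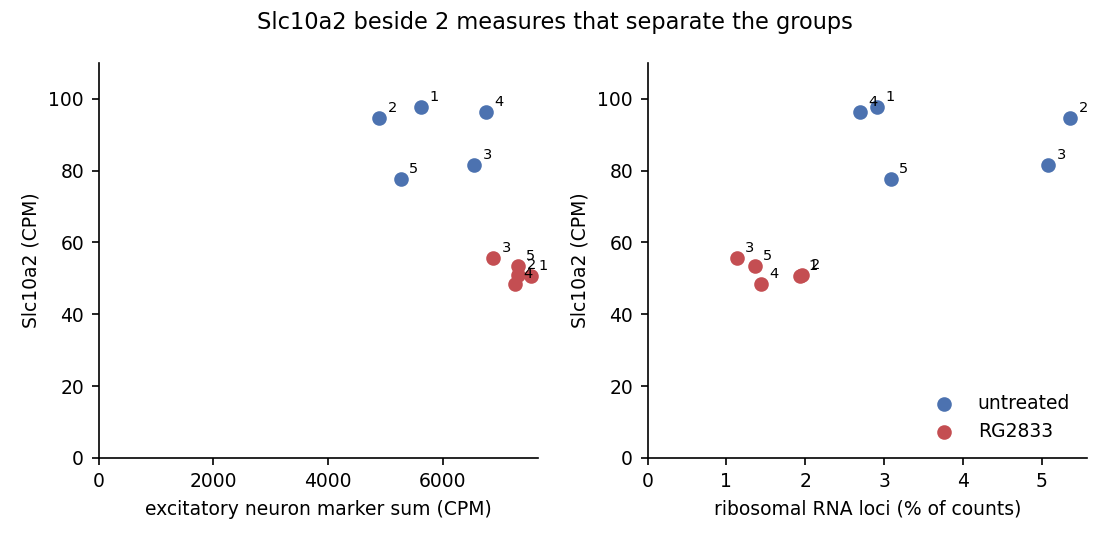
Slc10a2 level in CPM (vertical axes) against the summed level of 8 excitatory neuron markers in CPM (left) and the percent of counts at ribosomal RNA loci (right). Each point is an animal labelled by replicate number. The groups separate on every axis, with untreated animals at 77.6 CPM or more of Slc10a2 and RG2833 animals at 55.6 CPM or less, so diet, neuron marker sum and ribosomal RNA share cannot be told apart.

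Some of the genes that surround Slc10a2 in bile acid physiology had few counts or none in these hippocampi, and others, such as Cyp46a1, were abundant. Of 55 listed transport, receptor and synthesis genes, 51 had a row in the table and 32 passed the filter on low counts. A gene was called when its p from the quasi-likelihood test of edgeR, adjusted by Benjamini and Hochberg over all genes, was under 0.05. By this rule 0 of the 32 rose and 1 fell with RG2833. Over all 11791 tested genes, 5.08% were called in either direction, 2.41% higher and 2.67% lower, so the share of 3.12% in the list was no more than the background. The median log2 fold change of the 32 was -0.14, against -0.0035 for all tested genes. At an unadjusted p under 0.05, 17 of the 32 passed, 4 higher and 13 lower, against 24.5% of all genes, 11.8% higher and 12.7% lower. These counts cover the listed genes that passed the filter and not the whole list. The count of 1 called gene was 0 with the ribosomal RNA share or the excitatory neuron score in the fit and 2 with the choroid plexus score. It was 0 without untreated animal 3 or RG2833 animals 1, 2, 3 or 5, 2 without untreated animal 1 and 5 without untreated animal 4. Of the 31 genes that did not pass, the log2 fold change of 15 moved by over 1.5 times or changed sign in at least 1 fit without 1 animal, and so did 24 with the ribosomal RNA share, 22 with the excitatory neuron score and 5 with the choroid plexus score. Their values below are thus descriptions, and no direction is drawn from them.

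The classical partners of Slc10a2 in the intestine were at a few counts or none. Fabp6, the ileal protein that carries bile acids through the cell, had 0 counts in each untreated animal and at most 1 in an RG2833 animal. Slc51a, a subunit of the exporter on the other face of the ileal cell, had at most 4 counts in any animal and 0 in 7 of the 10. The receptor gene Gpbar1 had at most 2 counts. A floor of 3 counts corresponded to between 0.265 and 0.342 CPM in these libraries. Levels of Fabp6 and Gpbar1 were therefore under what this depth can resolve, and no fold change is given for them.

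Slc10a1, the liver's sodium-dependent bile acid transporter and a family member of Slc10a2, was low. It was 0.343, 1.10, 1.11, 1.21 and 0.952 CPM in untreated animals 1 to 5, and 0.763, 1.43, 1.03, 0.621 and 1.15 CPM in RG2833 animals 1 to 5. The lowest, untreated animal 1, was at the floor, and the groups overlapped widely. The log2 fold change of Slc10a1 was 0.07 ± 0.34 (SE, edgeR adjusted p = 0.919).

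Nr1h4, which encodes the bile acid receptor FXR, was also low. It was 1.94, 3.10, 2.41, 1.86 and 2.01 CPM in untreated animals 1 to 5, and 1.14, 1.52, 2.38, 0.724 and 1.36 CPM in RG2833 animals 1 to 5. In the RG2833 group, 4 of the 5 animals lay below every untreated animal, and number 3 lay among them. The log2 fold change of Nr1h4, -0.67 ± 0.29 (SE), did not pass (edgeR adjusted p = 0.177), and with the ribosomal RNA share in the fit it was -0.43 ± 0.59.

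Cyp46a1, the neuronal cholesterol hydroxylase, was abundant. It was 273, 320, 295, 287 and 286 CPM in untreated animals 1 to 5, and 323, 337, 340, 351 and 284 CPM in RG2833 animals 1 to 5. Of the RG2833 animals, 4 were above every untreated animal, while number 5 was within the untreated range. The log2 fold change of Cyp46a1 was 0.16 ± 0.08 (SE) and did not pass (edgeR adjusted p = 0.206), and with the ribosomal RNA share in the fit it was 0.29 ± 0.15 and did not pass either.

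**Figure D3:**
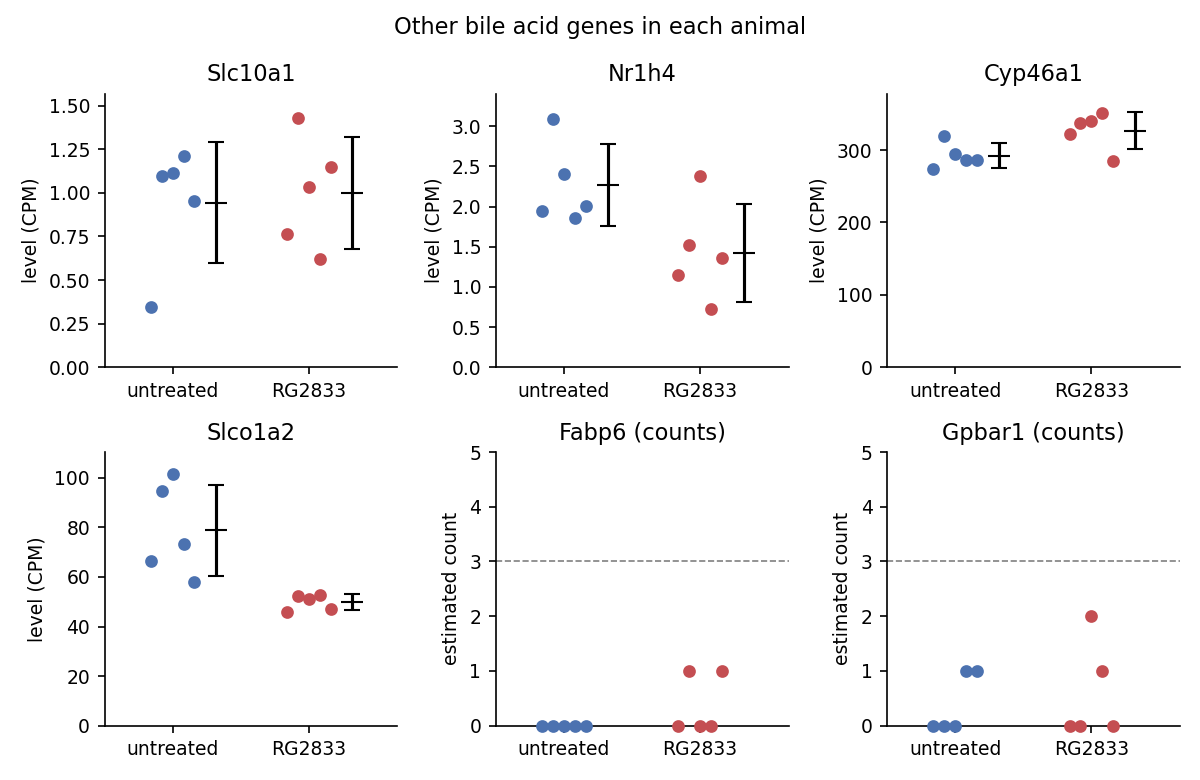
Other bile acid genes in each animal. Points are animals and bars are mean ± SD (n = 5) in CPM for Slc10a1, Nr1h4, Cyp46a1 and Slco1a2. Fabp6 and Gpbar1 are shown as estimated counts, with a dashed line at the floor of 3 counts. Only the 2 groups of Slco1a2 are fully apart, from 58.1 CPM upward in untreated and up to 52.7 CPM in RG2833 animals.

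Among the transporters, 13 of the 19 in the table were tested. The called gene of the whole bile acid set was Slco1a2, a row that the GRCr8 gene table lists as an older symbol of Slco1a4, an organic anion transporter of the blood-brain barrier that accepts bile acids among other substrates. Slco1a2 was 66.5, 94.5, 101, 73.3 and 58.1 CPM in untreated animals 1 to 5, and 46.0, 52.4, 51.1, 52.7 and 47.1 CPM in RG2833 animals 1 to 5. All RG2833 animals were lower than all untreated ones, and the untreated animals were spread more widely. Slco1a2 fell by 0.66 on the log2 scale (SE 0.14, edgeR adjusted p = 0.0241). Its call was lost in 5 of the 10 fits that left out 1 animal, those without untreated animal 3 or RG2833 animals 1, 2, 3 or 5, with edgeR adjusted p-values between 0.0568 and 0.0720. Over all 10 of these fits the log2 fold change lay between -0.75 and -0.56. With the ribosomal RNA share in the fit, the Slco1a2 difference was -0.14 ± 0.22 (log2, SE; edgeR adjusted p = 1.00). With the excitatory neuron score it was -0.61 ± 0.20 and no longer passed (edgeR adjusted p = 0.636). The 6 measured endothelial markers of 7 listed summed to between 234 and 353 CPM in untreated and between 212 and 240 CPM in RG2833 animals, and 0 of them was called. The seventh, Slco1a4, is the gene that the called row Slco1a2 stands for in the GRCr8 table, and it is not in this sum. The part of endothelial cells in the Slco1a2 result was not tested.

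**Figure D4:**
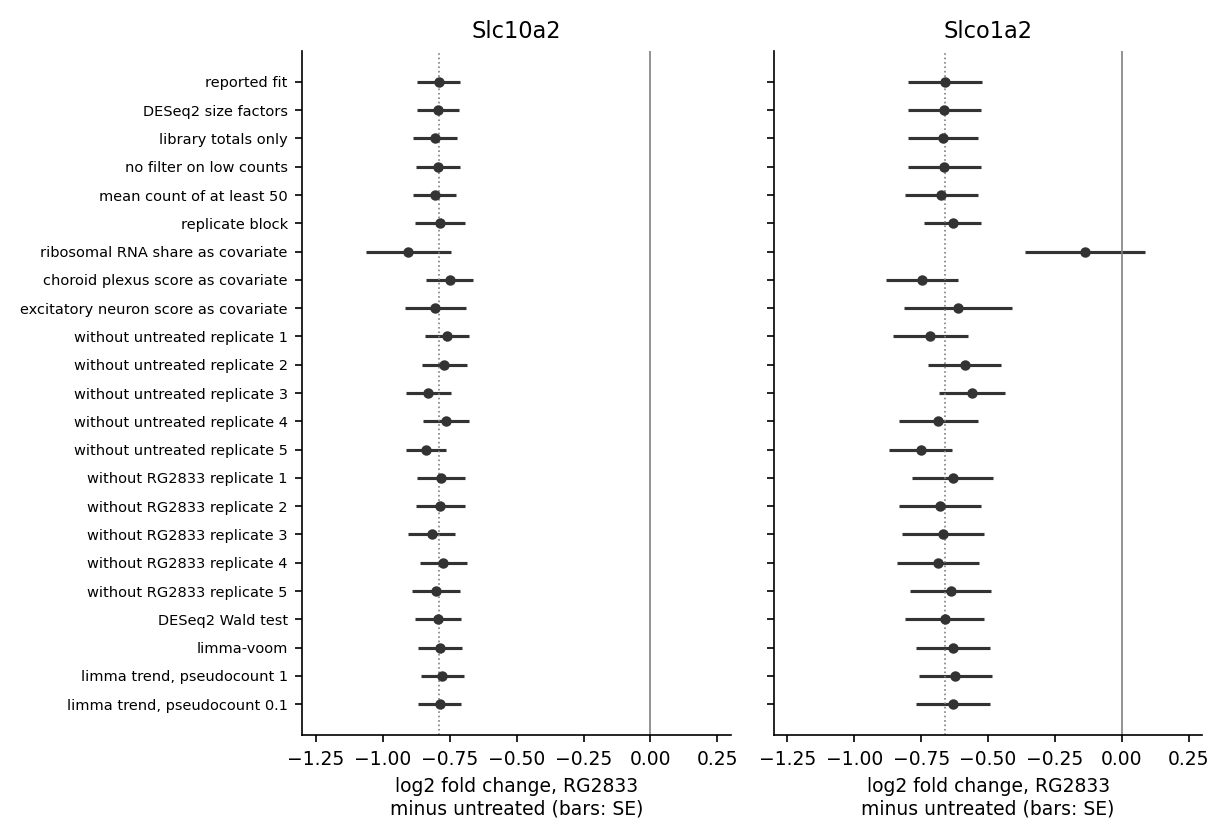
Log2 fold change (RG2833 minus untreated, horizontal axis) of Slc10a2 and Slco1a2 in the reported fit and in 22 alternative fits (rows), with bars for the SE. The dotted line is the reported value. Slc10a2 stays between -0.90 and -0.75 in all rows, whereas Slco1a2 is at -0.14 with the ribosomal RNA share and at -0.61 with the excitatory neuron score, and passed with neither.

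The other 12 tested transporters did not pass. Abcc4, an exporter of conjugated bile acids and other organic anions, was 11.6 ± 1.14 CPM without and 9.16 ± 1.10 CPM with RG2833 (SD, n = 5), and its groups did not overlap (log2 fold change -0.35 ± 0.12, SE; edgeR adjusted p = 0.101). Groups of this kind, fully apart, were found in 3 of the 32 bile acid genes, Slco1a2, Abcc4 and Abcd3, and in 7.27% of all tested genes. Abcc2, a related exporter, had a log2 fold change of -0.54 ± 0.22, Abcb4, a phospholipid transporter of bile canaliculi, -0.31 ± 0.14, and Abcc3 -0.21 ± 0.17 (SE). The thyroid hormone transporter Slco1c1 was 102 ± 20.8 CPM without and 83.2 ± 2.76 CPM with RG2833 (SD, n = 5; edgeR adjusted p = 0.133). For Slco2b1 and Slco1b2, 2 further organic anion transporters, the log2 fold changes were -0.12 ± 0.11 and 0.45 ± 0.26 (SE). Single animals moved some of these values that did not pass. Abcb4 was at -0.17 without untreated animal 2, Abcc3 at -0.13 without untreated animal 4, Slco1c1 at -0.18 without untreated animal 3, against -0.30 with all animals, and Slco1b2 at 0.27 without RG2833 animal 3. Slco2b1 was at -0.060 without untreated animal 2, at -0.082 without RG2833 animal 1 and at -0.20 without RG2833 animal 4.

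Of the other SLC10 family members, 0 were called. Slc10a4, a vesicle protein of cholinergic and monoaminergic neurons, was 1.66 ± 0.47 CPM without and 2.72 ± 0.93 CPM with RG2833 (SD, n = 5), with overlapping groups (log2 fold change 0.72 ± 0.28, SE; edgeR adjusted p = 0.135). With the ribosomal RNA share in the fit it was 0.15 ± 0.55, with the excitatory neuron score 1.10 ± 0.42 (SE), and it passed with neither. Slc10a3 was 6.27 ± 0.847 and 6.77 ± 1.13 CPM (SD, n = 5; edgeR adjusted p = 0.696). The steroid sulfate transporter Slc10a6 and the family member Slc10a7 had log2 fold changes of -0.10 ± 0.33 and -0.10 ± 0.22 (SE). When 1 animal was left out, Slc10a7 ran from -0.22, without RG2833 animal 4, to -0.015, without untreated animal 4, and Slc10a3 from 0.043, without RG2833 animal 5, to 0.19, without RG2833 animal 4. Slc10a5 did not reach the filter, with at most 8 counts in an animal. These levels are not adjusted for transcript length, so they are not compared between genes.

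Among the receptors and their partners, 8 of 14 in the table were tested and 0 were called. The retinoid X receptors pair with FXR on DNA. Rxrg had the largest difference of the list, from 25.8 ± 16.1 CPM to 9.84 ± 4.66 CPM (SD, n = 5), but the groups overlapped, since untreated animal 4 had 2.79 CPM, and the log2 difference of -1.39 ± 0.52 (SE) did not pass (edgeR adjusted p = 0.126). Without that animal the log2 fold change was -1.68 (edgeR adjusted p = 0.00663). With all animals it was -0.21 ± 1.03 with the ribosomal RNA share in the fit and 0.08 ± 0.72 with the excitatory neuron score (SE), and it passed with neither. Rxrb was 73.0 ± 6.08 CPM without and 84.3 ± 4.26 CPM with RG2833 (SD, n = 5; edgeR adjusted p = 0.101), and Rxra had a log2 fold change of -0.25 ± 0.24 (SE). The muscarinic receptors Chrm3 and Chrm2, which bind some conjugated bile acids besides acetylcholine, had log2 fold changes of 0.39 ± 0.17 and 0.69 ± 0.49 (SE). Without untreated animal 4, Chrm3 and Rxrb passed, with log2 fold changes of 0.53 and 0.25 (edgeR adjusted p = 0.0356 and 0.0420). With all animals neither passed, and the value of Chrm3 turned to -0.39 with the ribosomal RNA share and to -0.0073 with the excitatory neuron score, while Rxrb was 0.18 and 0.12. Nr1i3, a nuclear receptor of xenobiotic metabolism, and the sphingolipid receptor S1pr2 had log2 fold changes of -0.27 ± 0.14 and 0.22 ± 0.22 (SE). Chrm2 was at 0.38 without untreated animal 2, and S1pr2 at 0.064 without untreated animal 3 and at 0.34 without RG2833 animal 1.

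Among the synthesis genes, 11 of 18 were tested and 0 were called. Cyp7a1, the rate-limiting enzyme of bile acid synthesis in the liver, had 0 counts in all 10 animals, and Cyp8b1, which directs synthesis to cholic acid, had at most 2. Cyp27a1, the mitochondrial sterol hydroxylase of the alternative pathway, was 14.9 CPM in untreated animal 1, then 4.40, 5.37, 7.73 and 4.76 CPM in untreated animals 2 to 5. It was 14.0, 9.10, 13.6, 12.5 and 13.7 CPM in RG2833 animals 1 to 5. All RG2833 animals were above 4 of the 5 untreated ones, and untreated animal 1, the library with the high choroid plexus markers, was above all of them. With all animals the log2 fold change of Cyp27a1 was 0.77 ± 0.29 (SE, edgeR adjusted p = 0.130). Without untreated animal 1 it was 1.17 ± 0.19 (SE, edgeR adjusted p = 0.0204), and with the choroid plexus score in the fit it was 1.19 ± 0.24 (SE, edgeR adjusted p = 0.0439). With the ribosomal RNA share it turned to -0.17 ± 0.49, and with the excitatory neuron score it was 1.0399 ± 0.421 (SE; edgeR adjusted p = 1.00 and 0.735). The 7 oligodendrocyte markers summed to 17802, 6587, 6523, 12647.5 and 5748 CPM in untreated animals 1 to 5 and to between 9091 and 12304 CPM in RG2833 animals. Within the untreated group both the sum and Cyp27a1 were highest in animals 1 and 4, whereas RG2833 animal 1 had the lowest sum of its group and the highest Cyp27a1 level. The part of these cells in the Cyp27a1 values was not tested.

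Cyp7b1, which hydroxylates oxysterols and steroids, differed by 0.22 ± 0.11 on the log2 scale (SE) and did not pass (edgeR adjusted p = 0.233). Ch25h, another cholesterol hydroxylase, was 3.31 ± 1.27 CPM without and 2.15 ± 0.385 CPM with RG2833 (SD, n = 5; edgeR adjusted p = 0.182). The genes of later steps did not pass. Akr1c14 had a log2 fold change of -0.44 ± 0.16, Akr1d1, the steroid reductase of bile acid synthesis, -0.32 ± 0.20, and Hsd3b7 -0.28 ± 0.12 (SE). Akr1d1 was at -0.20 without untreated animal 2 and at -0.47 without RG2833 animal 5. Without untreated animal 4, Akr1c14 passed, at -0.53 (edgeR adjusted p = 0.0412), and with all animals it was -0.071 with the ribosomal RNA share and -0.11 with the excitatory neuron score and did not pass. The peroxisomal genes Scp2, Hsd17b4, Abcd3 and Amacr, which shorten the side chain or import the precursors, had log2 fold changes of -0.26 ± 0.11, -0.16 ± 0.07, -0.13 ± 0.06 and -0.10 ± 0.10 (SE). Amacr was at -0.048 without untreated animal 1, at -0.057 without RG2833 animal 4 and at -0.15 without untreated animal 5. Abcd3 was 98.0 ± 2.24 CPM without and 89.6 ± 3.19 CPM with RG2833 (SD, n = 5; edgeR adjusted p = 0.171).

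**Figure D5:**
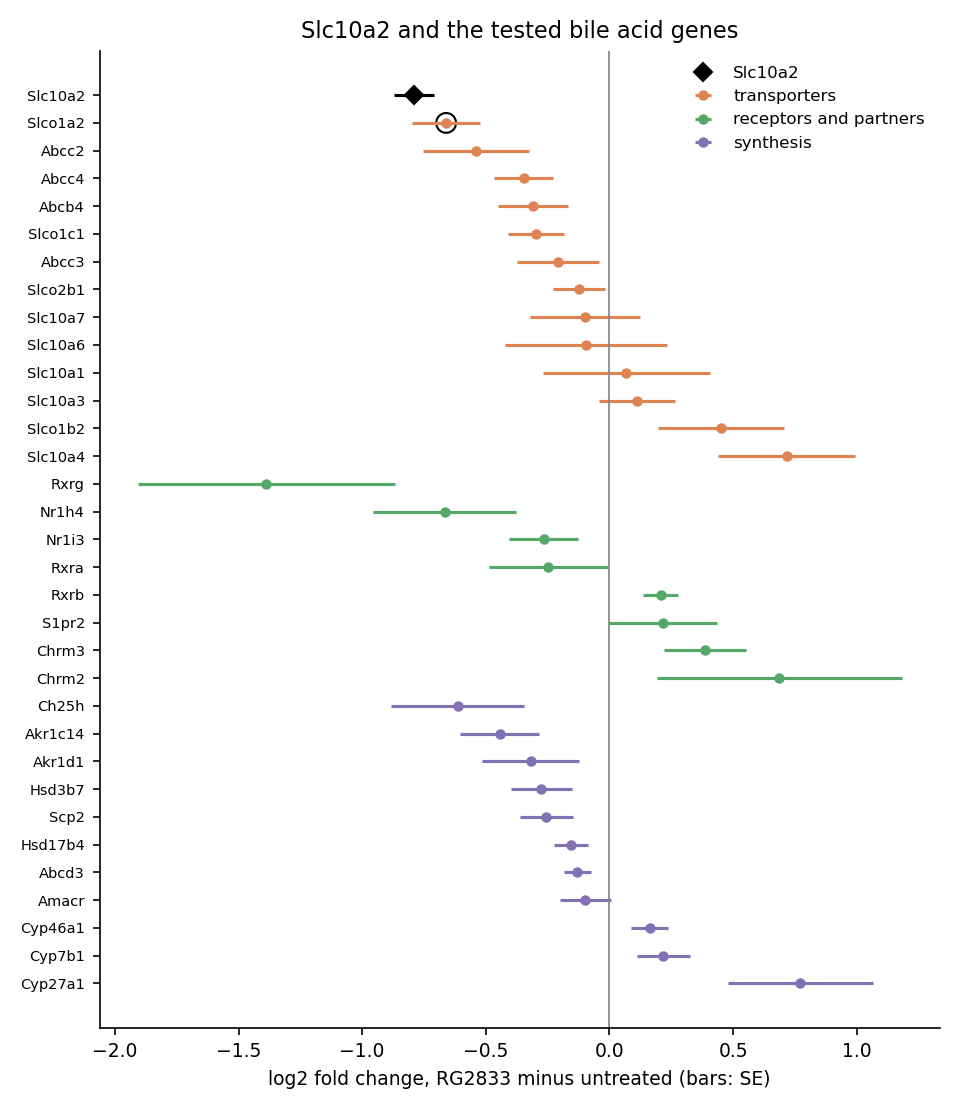
Log2 fold change (RG2833 minus untreated, horizontal axis) with its SE for Slc10a2 and for the 32 tested bile acid genes, grouped by role. The circle marks the 1 gene of the list called at an adjusted p under 0.05, Slco1a2 at -0.66, and Slc10a2 is drawn at -0.79 as a description.

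The remaining 19 bile acid genes in the table did not pass the filter on low counts. Of these, Cyp7a1 and Slco1a1 were at 0 in all animals, and 8, these 2 included, had no more than 3 counts in any animal. The highest level among the 19 was 2.86 CPM, for Slco1a5, which had 25 of its 29 estimated counts in 1 animal.

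Factors known to act on Slc10a2 in gut, liver or kidney were listed as well. Of the 25, 24 had a row and 15 were tested, and 3 of these rose and 0 fell with RG2833, 20.0% against the background of 5.08%. The list was drawn up with earlier results of these data known, so this share is not a test of an excess over the background. The 3 were Fos, Fosb and Junb, subunits of AP-1 and genes of the early response to neuronal activity. Junb was 53.7, 67.7, 47.7, 68.1 and 47.1 CPM in untreated animals 1 to 5, and 104, 90.7, 75.3, 83.4 and 68.6 CPM in RG2833 animals 1 to 5. The groups of Junb did not overlap, although untreated animal 4 and RG2833 animal 5 differed by less than 1 CPM. It rose by 0.57 ± 0.14 (log2, SE; edgeR adjusted p = 0.0362). Fosb and Fos rose by 0.82 ± 0.17 and 1.45 ± 0.33 (log2, SE; edgeR adjusted p = 0.0251 and 0.0334), each with overlapping groups. The AP-1 genes Jun, Jund, Fosl1 and Fosl2 did not pass, with log2 fold changes of -0.11, 0.14, 0.37 and 0.26. The count of 3 called factors was 0 without untreated animals 1 or 3 or without RG2833 animals 1, 2 or 3, and 1 without RG2833 animals 4 or 5. It was also 0 with the ribosomal RNA share, with the excitatory neuron score and with the choroid plexus score in the fit. The part of these measures in the AP-1 values was not tested.

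Several factors known to act on Slc10a2 in the intestine were near silence here. Hnf4a, Nr5a2, Gata4, Gata6 and Cdx2 did not pass the filter on low counts, and Nr5a2, Cdx2 and Gata6 had 0 counts in all animals. Slc10a2 was thus measured in tissue in which these transcripts were scarce or not detected. The glucocorticoid receptor gene Nr3c1, which also acts on Slc10a2, was 72.7 ± 15.5 CPM without and 81.0 ± 8.34 CPM with RG2833 (SD, n = 5; edgeR adjusted p = 0.484). Ppara and Rara had log2 fold changes of 0.27 ± 0.26 and 0.53 ± 0.22 (SE) and did not pass.

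Slc10a2 belongs to the solute carriers, a large superfamily of membrane transporters. Of the other 337 with a row, 251 were tested, and 7 of these passed as higher and 5 as lower with RG2833, 4.78% against 5.08% of all genes. Their median log2 fold change was 0.0088. The 5 called lower were Slc26a4, an anion exchanger, at -1.37 ± 0.26, Slc35d3 at -0.94 ± 0.23, the mitochondrial glutamate carrier Slc25a18 at -0.79 ± 0.21, the amino acid transporter Slc38a5 at -0.73 ± 0.17 and the iodide transporter Slc5a5 at -0.49 ± 0.13 (log2, SE; edgeR adjusted p between 0.0183 and 0.0495). Slc26a4 was low, at 1.97 ± 0.530 CPM without and 0.749 ± 0.0785 CPM with RG2833 (SD, n = 5). Among those called higher, the largest differences were those of the sodium-calcium exchanger Slc8a2 at 0.83 ± 0.21, the lysosomal amino acid sensor Slc38a9 at 0.72 ± 0.19, Slc35c1 at 0.45 ± 0.08, Slc43a2 at 0.31 ± 0.07 and Slc25a25 at 0.29 ± 0.07 (log2, SE; edgeR adjusted p between 0.0178 and 0.0449). The count of 12 was 0 without untreated animal 3 or without RG2833 animals 1, 3 or 5, 1 or 2 without untreated animal 1 or RG2833 animals 2 or 4, 4 without untreated animal 2, and 34 without untreated animal 4. It was 0 with the ribosomal RNA share or the excitatory neuron score in the fit and 1 with the choroid plexus score.

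In the GRCr8 gene table Slc10a2 lies near an end of chromosome 16, and 6 genes are listed after it, 0 of which have a row in the count table. On the other side, the nearest gene with a row is Efnb2, an ephrin ligand, with 15 listed genes between them. Of the 5 nearest genes with a row on that side, 4 were tested and 0 were called (edgeR; 1 of the 4 had an unadjusted p under 0.05, and 0 was also the count with DESeq2), where the share over all tested genes was 5.08% called and 24.5% at an unadjusted p under 0.05. Efnb2 was 7.08 ± 4.40 CPM without and 3.61 ± 1.28 CPM with RG2833 (SD, n = 5), with overlapping groups (log2 fold change -0.96 ± 0.38, SE; edgeR adjusted p = 0.142). Arglu1, Lig4 and Abhd13 had log2 fold changes of -0.06 ± 0.08, 0.04 ± 0.14 and 0.06 ± 0.09 (SE).

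To see which genes moved with Slc10a2 among animals of the same diet, log2 CPM was centred within each group, which takes out the contrast that chose the gene, and each of 11781 other genes was compared with it over the 10 animals. The closest were Suv420h2, a histone methyltransferase gene, Smpdl3a, a phosphodiesterase gene, and Ccdc12, with Pearson's r of 0.95, 0.94 and 0.94 as measures of likeness. The most opposite were Ciapin1, Pde1a, a cyclic nucleotide phosphodiesterase, and Set, a histone chaperone, at -0.97, -0.95 and -0.95. These 6 were picked as extremes of all these genes measured in the same libraries, so no p is given. Between the diets, 0 of the 6 were called, with log2 fold changes between -0.22 and 0.20 (edgeR adjusted p between 0.4096 and 0.841). Over all tested genes 5.08% were called, so a count of 0 in 6 genes is close to that share. In all, 31 genes had r above 0.9 and 28 had r under -0.9. Cyp46a1, Slco1a2, Nr1h4 and Slc10a1 had r of -0.14, 0.06, 0.37 and -0.12 with Slc10a2 on the same scale, so none of them was among these.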

How the data were processed

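RNA sequencing of 10 left hippocampi was analysed, 5 per diet, from 2 tables that hold one column per animal. The first holds estimated counts (RSEM expected counts per gene symbol, deposited by the authors with 2 decimals and no normalization). The second holds a normalized signal, CPM after TMM scaling, as deposited by the authors. The submitters' processing notes name bcl2fastq 2.17, Bowtie2 2.1.0, RSEM 1.2.15, edgeR and the build rn6. The annotation and the strand setting are not given in the sources used here.

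Counts were rounded, filtered with filterByExpr by group and tested with edgeR 4.0.16 (R 4.3.3), by the quasi-likelihood test with TMM scaling, no covariate and Benjamini-Hochberg adjustment over 11791 genes. CPM values use the same scaling, log2 CPM a prior count of 2, and the likeness and solute carrier rules a mean log2 CPM of at least 0. SE is the fold change over the square root of F. Gene order and older symbols came from the GRCr8 table of RefSeq, through which Slco1a2 and the marker Pvrl3 were matched. Slc51b, Fgf15, Klb, Cdx1 and Dsp had no row under the symbol listed. The test was checked on simulated counts in which 198 tested genes were changed by 1 log2 unit. It recovered 169 of these and made 13 false calls, and smaller changes were not simulated. Alternatives used DESeq2 1.42.0 and limma 3.58.1. Replicate numbers name different animals and do not pair them. Across 20 within-group pairs of libraries, chi-square per degree of freedom was between 4.78 and 38.4, so none was a duplicate.

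Slc10a2 and the gene lists were chosen with earlier results of these data known. Named genes are Slc10a2, Slc10a1, Fabp6, Nr1h4, Gpbar1 and Cyp46a1, the tested bile acid genes, called regulators, neighbours, the 3 genes most like and most unlike Slc10a2, and the 5 called solute carriers with the largest change in each direction. Other regulators and genes below the filter were named after their values were seen. A listed regulator and a motif that was searched are not reported here.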

Additional observations from a re-analysis of the deposited data

Results flagged for a closer look

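In groups of 5 animals, a value was noted when its gap to the nearest other value was over 0.71 of the group's range (Dixon's 95% limit for 5 samples). Of 160 groups examined, over every tested gene named and every marker list, 4 held such a value, where chance gives about 8. Slc10a2 was not among them.

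Abcc3 was 2.96 CPM in RG2833 animal 1, below the 3.72 to 3.93 CPM of the other RG2833 animals. Akr1d1 was 5.34 CPM in RG2833 animal 5, above the 3.00 to 3.62 CPM of the others. Jun was 252 CPM in RG2833 animal 1, above the 165 to 182 CPM of the others. The choroid plexus marker sum was 2460 CPM in untreated animal 1, above the 12 to 30.5 CPM of the other untreated animals.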

How the results depend on the processing

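The Slc10a2 log2 fold change moved by less than the spread between animals in all 22 alternatives. The replicate block left 180 called genes in place of 599, 2 solute carriers in place of 12 and 1 regulator in place of 3, and changed no other count of calls. The correlation of deviations between same-numbered animals averaged -0.066. With the ribosomal RNA share, 2 genes were called (0 bile acid genes, 0 regulators, 0 solute carriers), with the choroid plexus score 108 (2, 0 and 1), and with the excitatory neuron score 5 (0, 0 and 0). DESeq2's Wald test called 1286 genes and 28 solute carriers, and an adjusted p under 0.1 gave 1466 and 32. Leaving out 1 animal gave 98 to 1556 called genes, 0 to 5 bile acid genes, 0 to 4 regulators, 0 to 34 solute carriers and 0 neighbours. Library totals alone lowered the share of calls that were higher from 47.4% to 38.3%. The cause of these changes was not tested.

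Some bile acid genes that did not pass changed sign. With the ribosomal RNA share these were Slc10a6 (0.39), Abcb4 (0.00022), Slco1b2 (-0.13), Slco1c1 (0.092), Slco2b1 (0.029), Nr1i3 (0.22), S1pr2 (-0.62), Chrm2 (-1.57), Chrm3 (-0.39), Cyp27a1 (-0.17), Akr1d1 (0.059), Amacr (0.0094) and Scp2 (0.081). With the choroid plexus score it was Slc10a1 (-0.19). With the excitatory neuron score these were Slc10a1 (-0.45), Chrm2 (-0.13), Chrm3 (-0.0073), Rxrg (0.082), Ch25h (0.055) and Hsd17b4 (0.0016). Over the fits without 1 animal, Slc10a1 ran from -0.12 to 0.19, Slc10a6 from -0.30 to 0.030 and Rxra from -0.40 to 0.038.

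The 6 genes named for likeness depended on the measure. With Spearman's rho the count kept among the 6 extremes was 1, but ties set it. Smpdl3a and Ccdc12 shared a rho of 0.95 with 5 other genes, and Pde1a one of -0.96 with 2 others. The count was, with library totals, 1 (Suv420h2), and without centring by group 0.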
